A study of Homo sapiens with 6 samples.

Results

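The transcription factors described here are 10 genes of the AP-1 and EGR families: FOS, FOSB, FOSL1 and FOSL2, the 3 JUN genes JUN, JUNB and JUND, the related ATF3, and the zinc finger genes EGR1 and EGR3. They were picked by gene symbol from a table of 17280 genes, and all 10 were in it. RNA was sequenced from 6 libraries of CAL-27, a long-established cell line from a squamous carcinoma of the tongue, cultured as spheres, that is, in suspension under conditions that favour stem-like cells. The 3 libraries titled CON are labelled as normal controls. The other 3 are titled LF3, the name of a small-molecule inhibitor of the contact between beta-catenin and TCF4, and the series design gives a 24 h exposure to it, but their treatment field names elesclomol with copper, also for 24 h. The groups follow the titles, so directions are given for libraries carrying the title LF3, relative to CON. All libraries come from 1 cell line, and no label says that replicates were separate cultures, so the p-values rest on the scatter among these 6 libraries alone and that scatter may be technical.

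AP-1 is a pair of basic leucine zipper proteins held together by their zippers. JUN proteins can pair with each other or with FOS proteins, whereas FOS proteins need a partner such as JUN, and the pair binds the site TGACTCA. Most of these genes are immediate-early genes, switched on within minutes by growth factors or stress through MAP kinases and factors already in the cell, and their RNA is short-lived. EGR1 and EGR3 bind GC-rich sites through zinc fingers and are induced by the same signals. In squamous epithelium AP-1 controls genes of differentiation, migration and matrix breakdown.

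In the LF3 libraries 9 of the 10 genes stood below the CON libraries, and FOSL1 alone stood above them. FOS, FOSB and EGR3 were at 9.05 to 10.7% of their CON level, the JUN genes at 27.1 to 36.5% of it and FOSL2 at 55.4%, while FOSL1 was 2.32-fold higher. The RNA of the FOS family thereby passed from a mixture to one made mostly of FOSL1. Its sum changed little in TPM as deposited, and was not taken after rescaling. The RNA of the JUN family fell in all 3 genes. Values are TPM, a share of the library's transcripts that corrects for gene length and keep no sequencing depth. Log2 fold changes are differences of log2(TPM + 1), LF3 minus CON, given ± the limma standard error with n = 3 in each group. A gene was called where the limma p, adjusted by Benjamini-Hochberg over the 12195 genes whose mean reached 1 TPM, was under 0.05.

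Those counts stand against a broad background. Of all tested genes 85.5% were called, 32.3% lower and 53.2% higher in LF3. Of the 9 members that passed the filter, 8 were called lower and 1 higher. A called fall of at least 2-fold (log2 fold change of -1 or less) was found in 11.1% of tested genes and in 7 of the 9 tested members. A called rise of at least 2-fold was found in 20.8% of tested genes and in FOSL1. FOSL2 and FOSL1 lie near this threshold, and both crossed it when the libraries were rescaled: 8 members then had a called 2-fold fall and 0 a called 2-fold rise, against 15.3% and 14% of tested genes after median-ratio scaling and 14.4% and 14.6% after quantile normalization. The groups did not overlap in 86.2% of tested genes and in all 10 members. LF3 lay below CON in 32.7% of tested genes and in 9 of the 10 members, and above it in 53.5% of tested genes and in FOSL1. The median log2 fold change of the 9 tested members was -1.85, and that of all tested genes was 0.24. Median-ratio scaling, which divides a library by the median of its ratios to the geometric mean of each gene, brought the median of all genes to -0.0055 and moved each tested member lower by a similar amount, with no member changing direction or call. As these are bulk samples, fewer cells with a transcript and less of it per cell cannot be told apart, and no protein was measured.

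**Figure D1:**
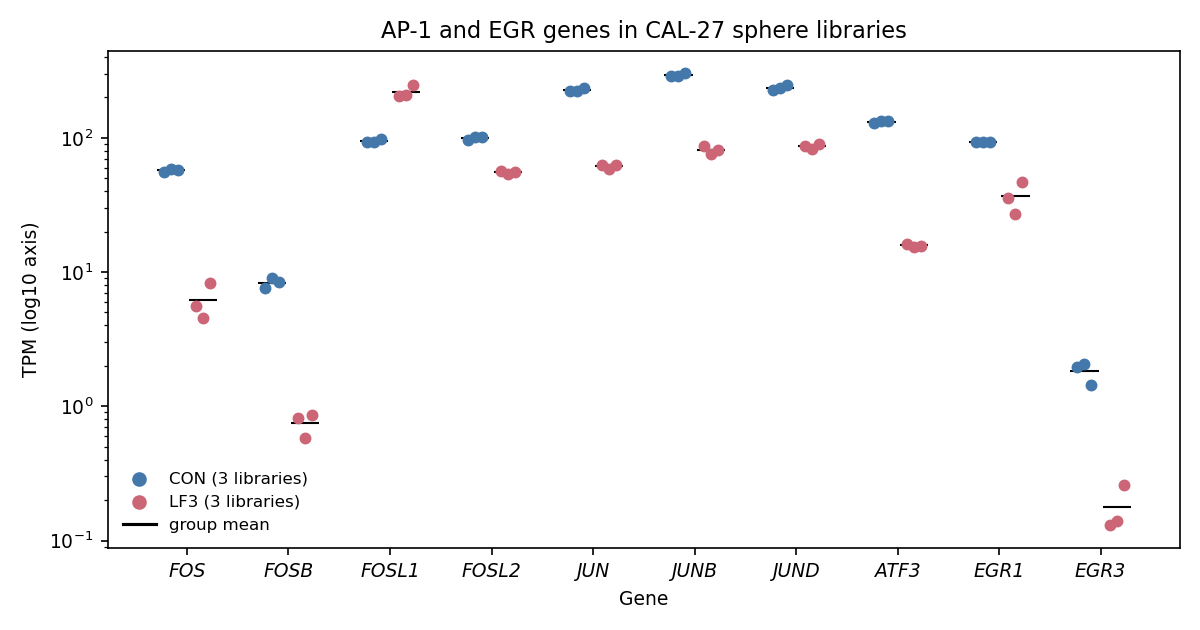
TPM of each of the 10 genes in each library on a log10 axis, with CON in blue, LF3 in red and a black line at each group mean. The red points lie below the blue points for every gene but FOSL1, where they lie above, and FOS, EGR1 and EGR3 show the widest spread among the LF3 libraries.

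FOS encodes c-Fos, the founding member of its family and a classic marker of recent growth factor signalling. It was measured at 55.9, 58.3 and 57.78 TPM in CON replicates 1 to 3 and at 5.61, 4.56 and 8.26 TPM in LF3 replicates 1 to 3. Every LF3 library was far below every CON library, with LF3 replicate 3 the highest of its group. The ratio of means was 9.33-fold (57.3 ± 1.26 TPM against 6.14 ± 1.91 TPM, SD), and the log2 fold change was -3.06 ± 0.15 (limma adjusted p = 5.41e-09). Of the 12195 tested genes, 76 had a lower log2 fold change. In CON, 81.9% of tested genes had a lower mean than FOS, and in LF3 22.9% did.

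FOSB, a close relative of FOS induced by the same stimuli, was scarce in both groups. It stood at 7.54, 9.04 and 8.39 TPM in CON and at 0.82, 0.58 and 0.86 TPM in LF3. The groups were separated by a wide margin, and the SD among the LF3 libraries was 20.1% of their mean. The ratio of means was 11.1-fold, while the log2 fold change of -2.41 ± 0.10 (limma adjusted p = 2.29e-09) understates it, since a pseudocount of 1 weighs on values under 1 TPM. With a pseudocount of 0.1 the log2 fold change was -3.32. FOSB reached the filter of 1 TPM through its CON values alone.

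The RefSeq table of promoter windows (GRCh38.p14) held 8 of the 10 genes, all but FOSL1 and EGR3. The submitters' processing notes name a mouse build, while the gene identifiers of the table are human, so these windows serve only to show sequence. The 250 bases before the RefSeq start are printed for FOS (chr14:75278578-75278827, plus strand), FOSB (chr19:45467746-45467995, plus strand), JUNB (chr19:12791236-12791485, plus strand), JUN (chr1:58784048-58784297, minus strand) and EGR1 (chr5:138465229-138465478, plus strand), 5′ to 3′ on the strand of the gene. They were chosen because these 5 genes fell and because the motifs below differ among them. Capitals mark matches on either strand to TGACG (read as CGTCA on the other strand), which is the core of the cAMP response element, TGACATCA, the variant AP-1 site known from the JUN promoter, the TATA box TATAAA, the CArG box bound by SRF, and the EGR site GCGNGGGCG.
FOS: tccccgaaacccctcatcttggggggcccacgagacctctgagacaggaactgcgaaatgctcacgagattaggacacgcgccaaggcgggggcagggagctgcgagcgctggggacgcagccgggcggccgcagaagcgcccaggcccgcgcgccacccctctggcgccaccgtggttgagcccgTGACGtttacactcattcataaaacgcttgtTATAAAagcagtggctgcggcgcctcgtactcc
FOSB: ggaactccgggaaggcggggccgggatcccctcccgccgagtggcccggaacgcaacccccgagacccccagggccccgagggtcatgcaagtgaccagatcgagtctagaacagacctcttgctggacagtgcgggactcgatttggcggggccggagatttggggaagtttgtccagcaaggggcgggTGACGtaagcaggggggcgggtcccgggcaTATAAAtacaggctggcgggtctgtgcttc
JUNB: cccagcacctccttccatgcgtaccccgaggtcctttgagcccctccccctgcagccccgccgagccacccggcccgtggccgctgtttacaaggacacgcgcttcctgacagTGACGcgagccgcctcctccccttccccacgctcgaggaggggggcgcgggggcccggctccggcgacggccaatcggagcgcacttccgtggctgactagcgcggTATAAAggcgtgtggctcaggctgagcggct
JUN: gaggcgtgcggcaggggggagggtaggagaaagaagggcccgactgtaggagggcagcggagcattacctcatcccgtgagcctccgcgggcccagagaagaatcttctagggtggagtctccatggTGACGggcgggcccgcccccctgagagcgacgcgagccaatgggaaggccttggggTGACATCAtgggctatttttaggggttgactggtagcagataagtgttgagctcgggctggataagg
EGR1: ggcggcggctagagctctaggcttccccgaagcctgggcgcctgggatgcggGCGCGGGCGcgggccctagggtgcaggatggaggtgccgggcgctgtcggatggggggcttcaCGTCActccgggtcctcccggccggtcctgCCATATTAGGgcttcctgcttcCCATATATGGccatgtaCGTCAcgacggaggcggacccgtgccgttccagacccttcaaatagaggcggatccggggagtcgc

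FOS and FOSB were alike in layout. The FOS window held TGACG at 64 bases and TATAAA at 33 bases before the start, and the FOSB window held them at 60 and 30 bases. JUNB had TATAAA at 31 bases and TGACG further out, at 137 bases. JUN had no TATAAA in the window, and had TGACATCA at 67 bases and TGACG at 123 bases. EGR1 was the only one of the 8 windows with CArG boxes, CCATATTAGG at 105 bases and CCATATATGG at 83 bases, and the only one with an EGR site, at 198 bases.

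TGACG was found on either strand in 7 of the 8 windows, all but ATF3, against 21.7% of 27305 promoter windows of that length and 30.5% of the 10045 tested genes that had one. These windows are rich in G and C (62.0 to 74.8% in the 7, and 49.2% in ATF3), and base composition was not matched. The full cAMP response element TGACGTCA, which contains TGACG, stood in the JUND window only, 200 bases before the start, against 1.77% of all windows. TGACATCA stood in JUN and ATF3 (2.45% of all windows), TATAAA in FOS, FOSB and JUNB (11.1%), the CArG box in EGR1 (1.14%) and the EGR site in EGR1 (8.25%). The AP-1 site TGACTCA (4.16%) and the TCF sites CTTTGAT (2.28%) and CTTTGAA (3.88%) were in none of the 8 windows. A match describes letters in a window and not a bound site. Other starts of the same gene and bases further upstream were not searched. A site missing from a window may therefore stand at another start or further out.

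FOSL1 encodes FRA-1, a FOS protein without the strong activation domain of c-Fos that is common in invasive carcinoma cells. It was measured at 93.14, 92.51 and 97.92 TPM in CON and at 204.93, 208.54 and 245.36 TPM in LF3. All 3 LF3 libraries were above all 3 CON libraries, and LF3 replicate 3 was the highest. The log2 fold change was 1.20 ± 0.063 (limma adjusted p = 1.26e-08), and 1841 tested genes had a higher one. It was 0.93 after median-ratio scaling and 0.92 after quantile normalization, so FOSL1 remained called higher on both. At 219.6 ± 22.4 TPM it was the most abundant of the 10 genes in LF3, where it had been the sixth in CON at 94.5 ± 2.96 TPM.

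FOSL2, which encodes the related FRA-2, had the smallest change of the 10 in deposited TPM. After median-ratio scaling and after quantile normalization it was FOSL1 that changed least (0.93 and 0.92, with FOSL2 at -1.11 and -1.18). Its values were 95.74, 101.76 and 101.45 TPM in CON and 56.62, 53.77 and 55.21 TPM in LF3. Both groups were tight and did not overlap. The ratio of means was 1.81-fold, and the log2 fold change was -0.84 ± 0.044 (limma adjusted p = 1.11e-08). FOSL1 and FOSL2 were level in CON, where their ranges overlapped, and 3.98-fold apart in LF3.

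The sum of the 4 FOS family genes was 252.3, 261.6 and 265.5 TPM in CON and 268.0, 267.4 and 309.7 TPM in LF3. In deposited TPM the LF3 sums all lay above the CON sums, by little in replicates 1 and 2. Sums were not taken after rescaling. Median-ratio scaling moved the log2 fold change of FOSL1 from 1.20 to 0.93, so the order of the sums may depend on the scaling. FOSL1 made up 36.9, 35.4 and 36.9% of the sum in CON and 76.5, 78.0 and 79.2% in LF3. The share of FOS fell from 22.1 ± 0.274% to 2.15 ± 0.484%, that of FOSL2 from 38.4 ± 0.493% to 19.7 ± 1.69%, and that of FOSB from 3.20 ± 0.236% to 0.267 ± 0.0455% (SD, n = 3). The family thus held FOSL2 and FOSL1 in near equal parts with FOS behind them in CON, and mainly FOSL1 in LF3. FOSL1 RNA was 1.65 ± 0.0559 times that of FOS in CON and 37.3 ± 8.04 times in LF3. Without FOSL1 the family summed to 165.3 ± 5.35 TPM in CON and 62.1 ± 2.83 TPM in LF3. These sums and shares are descriptions of the members and were not tested.

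**Figure D2:**
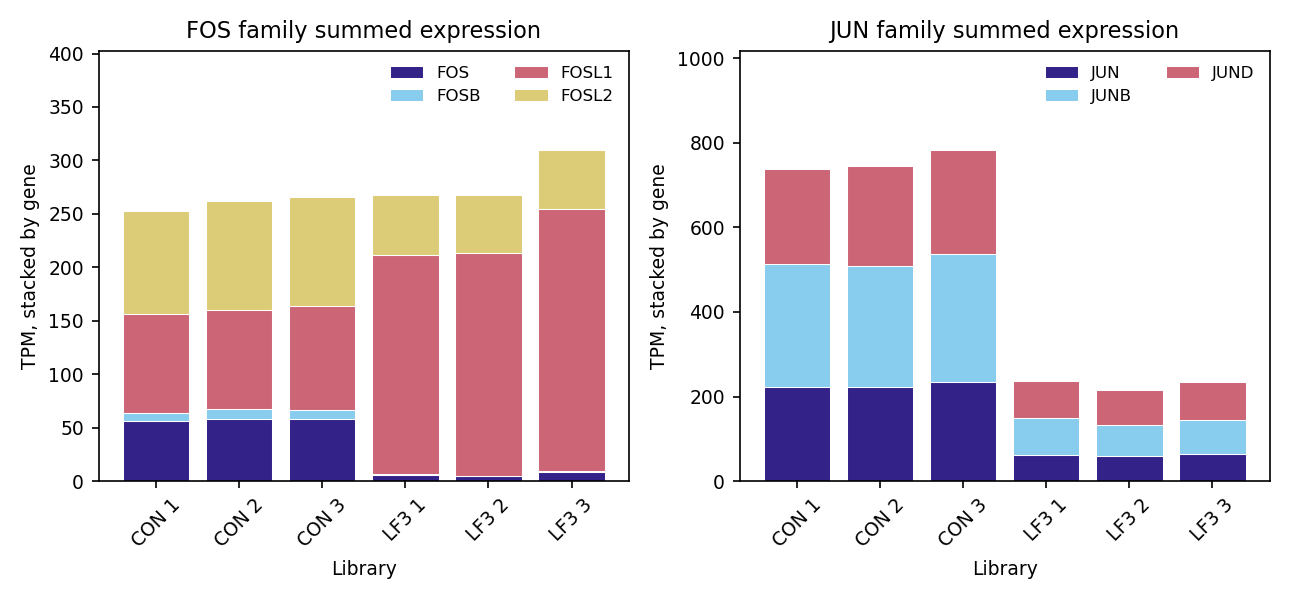
Stacked TPM, as deposited and not rescaled, of the FOS family genes (left) and the JUN family genes (right) in each library, each colour 1 gene. The height of the FOS family bars differs little between groups, from 252.3 to 265.5 TPM in CON and 267.4 to 309.7 TPM in LF3, while FOSL1 fills most of the LF3 bars; the JUN family bars drop from at least 738.8 TPM to at most 236.5 TPM.

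The JUN genes supply the partner that every FOS protein needs. JUN, the strongest activator among them, was measured at 222.57, 221.59 and 233.99 TPM in CON and at 62.5, 58.25 and 63.2 TPM in LF3. JUNB, which can oppose JUN at some genes, stood at 289.91, 287.09 and 301.98 TPM in CON and at 86.88, 75.38 and 80.54 TPM in LF3. JUND, the most steadily expressed JUN gene in many cells, stood at 226.35, 235.36 and 246.81 TPM in CON and at 87.09, 81.8 and 89.78 TPM in LF3. All 3 fell with wide gaps between the groups. Log2 fold changes were -1.87 ± 0.044 for JUN (limma adjusted p = 3.08e-11), -1.85 ± 0.051 for JUNB (limma adjusted p = 9.26e-11) and -1.44 ± 0.047 for JUND (limma adjusted p = 3.01e-10).

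The falls of JUN and JUNB were of like size, at 3.69-fold and 3.62-fold by ratio of means, and that of JUND was 2.74-fold. JUND rose from 31.3 ± 0.548% to 37.8 ± 0.831% of the JUN family sum, while JUN went from 29.9 ± 0.175% to 26.8 ± 0.359% and JUNB from 38.8 ± 0.380% to 35.4 ± 1.18%. The sum of the 3 genes was 738.8, 744.0 and 782.8 TPM in CON and 236.5, 215.4 and 233.5 TPM in LF3. JUN family RNA was therefore 2.91 ± 0.0551 times FOS family RNA in CON and 0.814 ± 0.0646 times in LF3, with no overlap between the groups. JUNB overlaps HOOK2 in the annotation, and as the sources used here do not say whether counting used strand, their reads may be shared. HOOK2 averaged 20.7 ± 1.39 TPM in the CON and 19.8 ± 1.07 TPM in the LF3 libraries (log2 fold change -0.063 ± 0.067, limma adjusted p = 0.390), and passed as lower after median-ratio scaling (-0.32) and quantile normalization (-0.36). FOSL2 and EGR3 each overlap a long non-coding gene that is not in the table.

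ATF3, a stress-induced partner of JUN proteins that can repress or activate genes, was measured at 129.65, 133.07 and 132.78 TPM in CON and at 16.31, 15.32 and 15.74 TPM in LF3. It was tight within both groups, and the groups lay 8.35-fold apart by their means. The log2 fold change was -2.98 ± 0.045 (limma adjusted p = 2.06e-12), with 89 tested genes lower, the smallest adjusted p of the 10 genes. In CON it was the fourth most abundant member, and in LF3 the seventh.

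EGR1 was the most variable member in LF3 among those above 10 TPM, with an SD of 27.2% of its mean. It was measured at 92.56, 93.65 and 93.59 TPM in CON, and at 35.9, 27.02 and 46.89 TPM in LF3. The CON libraries differed by about 1 TPM, whereas the LF3 libraries spread widely and still lay below CON. The ratio of means was 2.55-fold, with a log2 fold change of -1.36 ± 0.15 (limma adjusted p = 5.00e-06), which was -1.17 without LF3 replicate 2 and -1.55 without LF3 replicate 3. EGR3, a relative that growth factor signals also induce, was near the floor, at 1.96, 2.07 and 1.43 TPM in CON and at 0.13, 0.14 and 0.26 TPM in LF3. It had a mean under 1 TPM over the 6 libraries and was not tested. Its groups did not overlap, its ratio of means was 10.3-fold, and with no filter its log2 fold change of -1.26 was called lower (limma adjusted p = 1.97e-05).

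**Figure D3:**
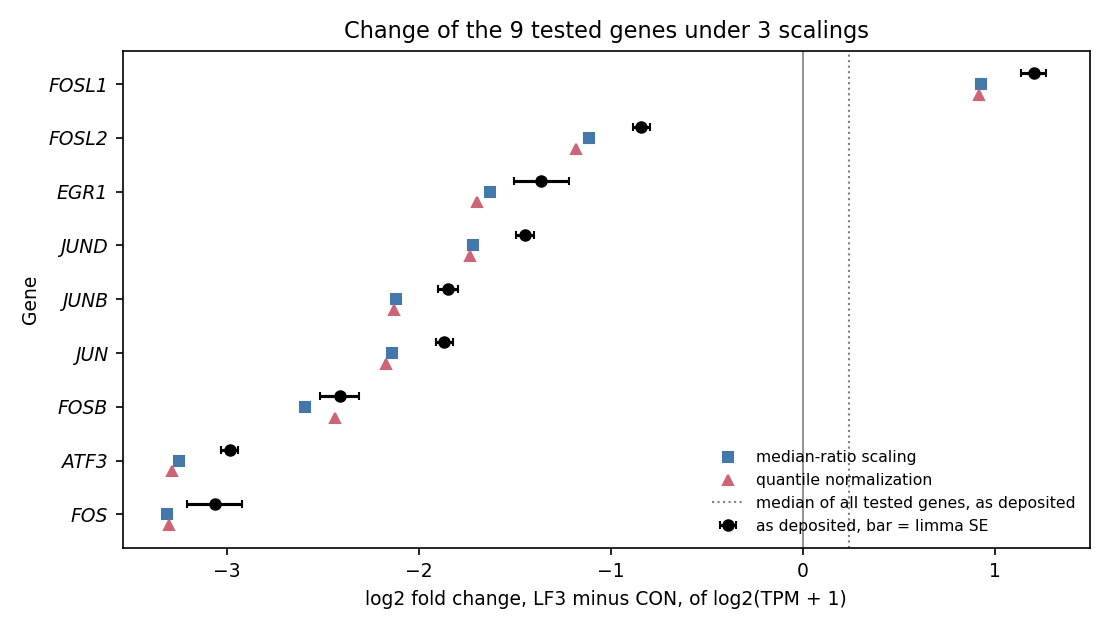
Log2 fold change, LF3 minus CON, of the 9 tested genes: black points with bars for the limma standard error are the deposited TPM, blue squares median-ratio scaling and red triangles quantile normalization. FOSL1 lies above 0 at 1.20, 0.93 and 0.92, and the other genes lie below 0 on each scaling, from FOSL2 (-0.84, -1.11 and -1.18) to FOS (-3.06, -3.31 and -3.30).

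Ordered by level in CON, JUNB came first at 293.0 TPM, then JUND and JUN, whose ranges overlapped, then ATF3. FOSL2, FOSL1 and EGR1 followed within 93.3 to 99.7 TPM, each overlapping its neighbour, and below them FOS, FOSB and EGR3 were each separate. In LF3 the order was FOSL1, JUND, JUNB, JUN, FOSL2, EGR1, ATF3, FOS, FOSB and EGR3. Of these neighbours JUND and JUNB alone overlapped. FOSL1 stood higher than 94.2% of tested genes in LF3, compared with 88.5% in CON. ATF3 went the other way, from 91.8% to 43.3%, and JUN from 95.4% to 78.4%.

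Within the LF3 group the members tended to share a library order. LF3 replicate 2 held the lowest value for 8 of the 10 genes and for 23.6% of all tested genes. LF3 replicate 3 held the highest value for 7 of the 10 and for 20.7% of tested genes, and it was the lowest of its group for 55.0% of tested genes. Among the CON libraries, replicate 1 was lowest for 6 of the 10, against 35% of tested genes. The highest LF3 library stood above the lowest by 1.81-fold in FOS, 1.74-fold in EGR1 and 2-fold in EGR3, more than in the other members, beside ratios of group means of 9.33-fold, 2.55-fold and 10.3-fold. In EGR1 the spread within LF3 was therefore not small next to the difference between groups.

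The genes most like FOS over the 6 libraries, by Euclidean distance of log2(TPM + 1), were LRP1 (distance 0.693), PAN2 (0.845) and SEZ6L2 (0.854). LRP1, a large endocytic receptor, averaged 54.5 TPM in CON and 6.74 TPM in LF3. Those most like FOSL1 were STOML2 (0.216), a protein of the inner mitochondrial membrane, TMX2 (0.229) and H2AZ2 (0.255), a histone variant gene. STOML2 averaged 100.2 TPM in CON and 212.8 TPM in LF3.

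Other basic leucine zipper genes that can pair with AP-1 proteins were split. Of 20 listed, 17 were tested, with 5 higher and 8 lower (3 and 11 after median-ratio scaling) and a median log2 fold change of -0.097. Among all tested genes 53.2% were higher and 32.3% lower in deposited TPM. This list and those below were chosen with earlier results of these data known, so their counts are descriptions. DDIT3, which encodes the stress factor CHOP, fell from 308.7 ± 3.996 TPM to 45.1 ± 1.10 TPM. The small MAF genes MAFF and MAFK, whose proteins lack an activation domain, had -1.20 ± 0.051 and -1.06 ± 0.050 (limma adjusted p = 2.11e-09 and 5.44e-09). CEBPD, a factor of the acute-phase response, rose from 5.81 ± 0.771 TPM to 30.9 ± 3.91 TPM. The others called higher were BATF3, ATF1, JDP2 and MAFG, named after their values were seen; JDP2 lost its call after median-ratio scaling (0.19, limma adjusted p = 0.0889) and MAFG turned to -0.072. BATF is not among the genes of the table.

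The other EGR genes were lower too. EGR2 was measured at 3.38, 2.88 and 2.84 TPM in CON and at 0.24, 0.40 and 0.23 TPM in LF3. Its log2 fold change was -1.64 ± 0.11 (limma adjusted p = 8.56e-08). With a pseudocount of 0.1 it was -3.03. EGR2 reached the filter of 1 TPM through its CON values alone. EGR4 lay under the filter with 0.400 ± 0.0985 TPM in CON and 0.1 TPM in each LF3 library. NAB2 and NAB1 encode corepressors that bind EGR proteins, and NAB2 is itself induced by them. Their log2 fold changes were -0.57 ± 0.054 and -0.31 ± 0.068 (limma adjusted p = 1.73e-06 and 0.00141). All 3 tested genes of this list of 4 were thus called lower, beside 32.3% of all tested genes.

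The genes that carry the signal to FOS and EGR1 were split. SRF, the factor that binds CArG boxes, rose with a log2 fold change of 0.59 ± 0.054 (limma adjusted p = 1.31e-06). Of its ternary complex partners, ELK3 and ELK1 had 0.48 ± 0.059 and 0.37 ± 0.048, while ELK4 fell with -0.88 ± 0.073 (limma adjusted p = 6.08e-07). After median-ratio scaling ELK1 was no longer called (0.10, limma adjusted p = 0.0831), and after quantile normalization neither ELK1 nor ELK3 was. Of the 6 genes in this list, 3 were higher and 1 lower (2 and 2 after median-ratio scaling, 1 and 3 after quantile normalization), beside 53.2% higher and 32.3% lower among all tested genes, so the majority turned with the scaling.

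Of 18 tested MAP kinase cascade genes, 10 were higher and 5 lower (8 and 7 after median-ratio scaling, 7 and 8 after quantile normalization), with a median of 0.30 beside 0.24 for all genes. The shares over all tested genes were 53.2% higher and 32.3% lower in deposited TPM. MAP2K3, a kinase upstream of p38, rose from 39.3 ± 1.81 TPM to 97.0 ± 5.58 TPM. RPS6KA1, an ERK-activated kinase, rose from 35.3 ± 0.595 TPM to 62.6 ± 1.11 TPM. The ERK kinase gene MAP2K1 fell from 198.5 ± 1.76 TPM to 116.4 ± 0.739 TPM. The other 4 called lower were MAPK3, which encodes ERK1, BRAF, MAP2K7 and MAPKAPK2, named after their values were seen. Among genes whose products limit JUN, CSK and the ligase gene COP1 had 1.71 ± 0.050 and 1.14 ± 0.074, and the ligase genes ITCH and FBXW7 had -1.16 ± 0.066 and -0.44 ± 0.075 (limma adjusted p from 1.46e-10 to 0.000232). These are RNA levels, and kinase activity was not measured.

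Immediate-early genes outside the AP-1 and EGR families were mostly lower. Of 24 tested (26 listed), 16 were lower and 6 higher (18 and 5 after median-ratio scaling), with a median of -0.39. Over all tested genes 32.3% were lower and 53.2% higher in deposited TPM. DUSP1, the phosphatase that switches off MAP kinases, fell from 135.2 ± 1.39 TPM to 14.3 ± 2.06 TPM. ZFP36, which speeds the decay of short-lived RNAs, fell from 44.2 ± 1.38 TPM to 9.81 ± 0.639 TPM. NR4A1, an orphan nuclear receptor gene, and GADD45B, a stress gene, had log2 fold changes of -2.58 ± 0.095 and -2.02 ± 0.059 (limma adjusted p = 7.01e-10 and 1.34e-10). The 6 that were higher, named after their values were seen, were MYC, CCN1, SGK1, ZFP36L2, IER3 and CCN2. MYC was the highest of them at 1.21 ± 0.054, and CCN2, at 0.33 ± 0.069, was not called after median-ratio scaling (0.080, limma adjusted p = 0.291).

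**Figure D4:**
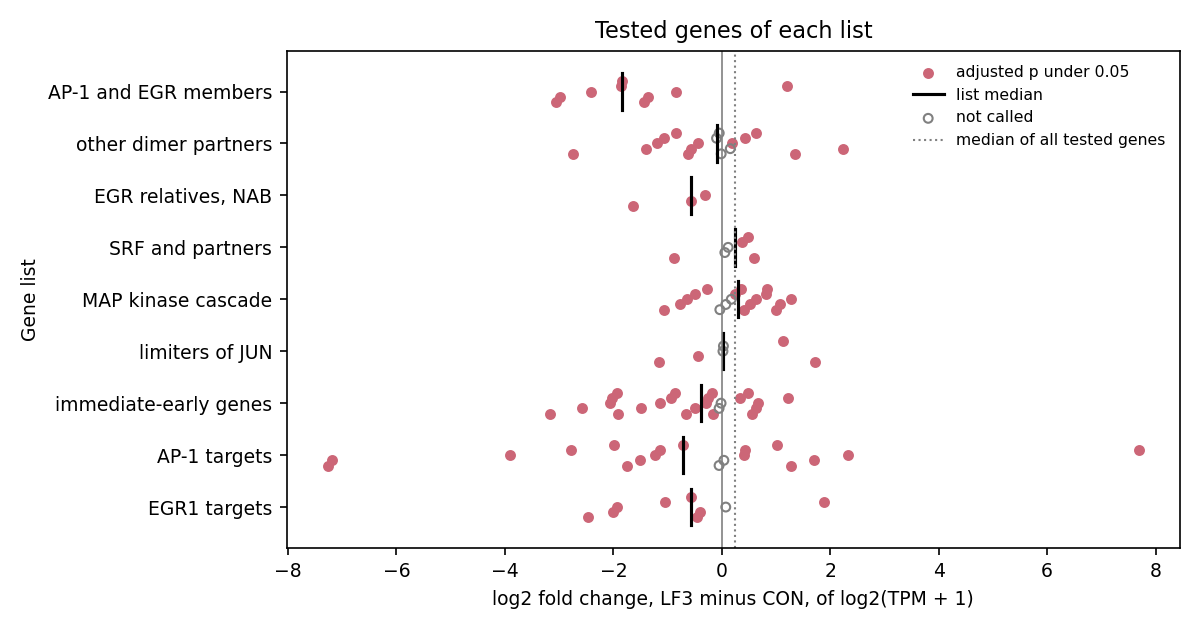
Log2 fold change, LF3 minus CON, of each tested gene in 9 gene lists, with filled red points for called genes, open points for the rest, a black bar at each list's median and a dotted line at the median of all tested genes (0.24). The AP-1 and EGR members sit lowest as a group, at a median of -1.85, with FOSL1 apart on the right, while the AP-1 targets reach from below -7 to above 7.

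Genes known as AP-1 targets in other settings moved to both extremes. Of 19 tested (22 listed), 10 were lower and 7 higher (12 and 7 after median-ratio scaling), with a median of -0.72. For all tested genes the shares were 32.3% lower and 53.2% higher in deposited TPM. The collagenase gene MMP1 fell with -7.18 ± 0.11 (limma adjusted p = 2.35e-12). The chemokine gene CCL2 rose with 7.70 ± 0.073 (limma adjusted p = 1.52e-13). The others called higher were IL6, CXCL8, CCND1, PLAU, GSTP1 and KRT6A, named after their values were seen, from 2.33 ± 0.093 for IL6 to 0.41 ± 0.051 for KRT6A, whose call was lost after quantile normalization (0.041, limma adjusted p = 0.425). Many of these genes also answer to other factors, and which of them AP-1 bound here was not measured.

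Of 9 tested genes known as EGR1 targets, 7 were lower and 1 higher (7 and 1 after median-ratio scaling), with a median of -0.57. Beside these counts, 32.3% of all tested genes were lower and 53.2% higher in deposited TPM. NAB2 stands in this list and in that of the corepressors. TGFB1, the growth factor gene, fell from 106.6 ± 6.13 TPM to 18.3 ± 0.632 TPM. CDKN1A, the cell cycle inhibitor gene, fell from 203.3 ± 2.09 TPM to 49.8 ± 0.823 TPM, and the death receptor gene TNFRSF10B from 190.1 ± 3.50 TPM to 91.9 ± 1.33 TPM. F3, which encodes tissue factor, was the one that rose, from 135.6 ± 2.65 TPM to 501.8 ± 19.6 TPM.

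Genes were also sorted by the letters in their promoters. Among 272 tested genes with TGACTCA in the 250 bases before the start, 46.0% were higher and 38.2% lower, and their median log2 fold change was 0.056. Among 1402 with the EGR site the median was 0.25, and among 102 with a CArG box 0.017, beside 0.24 for all tested genes. That last median covers all 12195 tested genes, while the motif groups come from the 10045 with a promoter window. Base composition was not matched between the groups. The variant site TGACATCA gave the lowest median of the 9 motifs, -0.079 among 122 genes, and was alone in having fewer genes higher (38.5%) than lower (44.3%). The highest medians were those of the TCF site CTTTGAA (0.37 among 220 genes), the full cAMP response element TGACGTCA (0.36 among 299) and the TCF site CTTTGAT (0.31 among 119). TGACG and TATAAA had medians of 0.25 and 0.12. These are descriptions, in deposited TPM, of the genes that hold the letters. They were not repeated after rescaling. Median-ratio scaling moved the median of all tested genes from 0.24 to -0.0055. Which motifs had fewer genes higher than lower may therefore depend on the scaling.

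Markers of other cells were checked beside these results. The marker counts stand beside 53.2% higher and 32.3% lower among all tested genes in deposited TPM. Of 10 squamous epithelial markers 8 were tested, with 4 higher and 3 lower (2 and 5 after median-ratio scaling, 1 and 6 after quantile normalization). Their summed level in deposited TPM was 879.3 to 913.9 TPM in CON and 1092 to 1135 TPM in LF3. This sum was not taken after rescaling. KRT5 rose from 101.7 ± 3.43 to 454.2 ± 6.66 TPM, by more than the sum did, and KRT17 fell with a log2 fold change of -1.75 ± 0.042 (limma adjusted p = 3.34e-11). PKP1 and DSG3, genes of the desmosome, were the others called lower, at -1.94 ± 0.070 and -0.32 ± 0.088. KRT14 was under 1 TPM in both groups (0.777 ± 0.0757 and 0.447 ± 0.143 TPM), although the KRT5 and KRT14 proteins form a pair in basal cells. Fibroblast markers summed to 14.8 to 15.8 TPM in CON and 6.91 to 7.69 TPM in LF3, with 3 of 7 tested, all called lower. Of these, PDGFRB (-0.29 ± 0.11, limma adjusted p = 0.0243) was not called after quantile normalization (limma adjusted p = 0.118) or without CON replicate 2 (0.0909) or LF3 replicate 2 (0.102). Endothelial markers summed to 0.53 to 0.67 TPM in CON and 6.29 to 7.26 TPM in LF3, of which CDH5 alone (6.19 ± 0.654 TPM in LF3) was tested. CDH5 reached the filter through its LF3 values alone. Leukocyte markers summed to 330.4 to 342.3 TPM in CON and 48.3 to 52.4 TPM in LF3, nearly all of it CD68, a lysosomal protein gene that epithelial cells also express. Of 7 listed, 3 were tested, with 2 called lower (CD68 and ITGAM) and 1 higher (CD14). CD14 went from 0.693 ± 0.236 to 1.99 ± 0.302 TPM (limma adjusted p = 0.000119) and reached the filter through LF3 alone. ITGAM went from 1.51 ± 0.173 to 0.773 ± 0.271 TPM and reached it through CON alone. The defining marker PTPRC was at 0 in every LF3 library and at 0.0133 ± 0.0115 TPM in CON. The part of other cells in the results was not tested.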

How the data were processed

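Total RNA of 6 libraries was sequenced from 1 end on the BGISEQ500 platform, per the labels' protocols. HISAT and Bowtie2 stand in the submitters' processing notes beside a mouse build, GRCm38.p6, although the identifiers are human. The counting tool and use of strand were not given in the sources used here. TPM per gene and library were deposited by the authors and sum to the same total in each, so the depth is unknown and intervals for counting error could not be given. Values were transformed to log2(TPM + 1), genes whose mean reached 1 TPM were kept (12195 of 17280), and LF3 was compared with CON in limma 3.58.1 (R 4.3.3) with a trend of variance on mean and two-sided p-values adjusted by Benjamini-Hochberg over all tested genes. An exact permutation test of 3 against 3 cannot go below p = 0.1, so none is given. The procedure was tested on simulated data with independent noise for each gene, sized by the scatter among these libraries. Such data cannot show how it handles shifts of whole libraries or replicates that are only technical. The members and lists were chosen with earlier results of these data known. All 10 members are named, along with up to 4 called genes of each other list with the smallest adjusted p and the 3 nearest genes to the members with the largest fall and rise; some of these genes are not reported here. Alternatives were pseudocounts of 0.1 and 0.5, no filter and a filter of 5 TPM, 2 scalings, 3 limma options, a replicate block and leaving out each library. Libraries of a group shared 0.320 to 0.541% identical values and were kept apart. Identifiers matched RefSeq's human table (GRCh38.p14) for all 10 members. Figures used matplotlib 3.10.9 in Python 3.11.15.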

Additional observations from a re-analysis of the deposited data

How the results depend on the processing

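The 9 tested members kept their direction and their call in all 143 values from the 16 alternatives run, with a largest limma adjusted p of 0.000708 (EGR1, robust variances); FOSB fell under a filter of 5 TPM and was not tested there. The count of members called higher was 1 throughout and that called lower 7 to 9, where 9 includes EGR3 with no filter (-1.26) or without LF3 replicate 1, 2 or 3 (-1.31 to -1.23), which brings its mean past the filter. Leaving out a library moved FOS between -3.27 and -2.90, EGR1 between -1.55 and -1.17 and FOSL1 between 1.12 and 1.25. Over all genes, 6489 were called higher and 3938 lower as deposited, 5195 and 5205 after median-ratio scaling and 5351 and 5059 after quantile normalization, so 62.2%, 50.0% and 51.4% of called genes were higher. Counts of called list members moved over 1.5 times in these cases: AP-1 partners higher 5 to 3 under both scalings; SRF list higher 3 to 1 (quantile) and lower 1 to 2 and 3 (both scalings); MAP kinase genes lower 5 to 8 (quantile); squamous markers higher 4 to 2 and 1 (both scalings) and 2 (without LF3 replicate 2), and lower 3 to 5 and 6 (both scalings). With a filter of 5 TPM, which tests fewer genes, endothelial and leukocyte markers higher went from 1 to 0, fibroblast markers lower from 3 to 1 and leukocyte markers lower from 2 to 1; with no filter endothelial markers higher went to 2. MAFG reversed after median-ratio scaling (-0.072) and quantile normalization (-0.16). Replicate numbers were not treated as pairs in the main fit. Same-numbered libraries had correlations of their deviations of 0.0476, 0.106 and 0.160, so not every pair passed 0.1. A weak pairing may still be present. Each LF3 library correlated best with the CON library of its own number, but CON replicate 1 correlated best with LF3 replicate 2 (0.0737). With the replicate number as a block 6536 genes were called higher and 3986 lower, with 1 and 8 of the members.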
